A study of Mus musculus with 2 samples.

Results

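The genes described here are 32 unfolded protein and ATF4 response genes, taken by symbol from the 28692 genes that both count matrices list. All 32 were found. They comprise 3 sensors of the endoplasmic reticulum (ER) and the factor Xbp1, 14 ER chaperones and their partners, 4 genes of ER-associated degradation, and 10 genes of the branch around Atf4 and Ddit3. The source was MC38, a transplantable colon carcinoma line of the mouse, grown as tumours in C57BL/6 albino animals. Tumour pieces of 40 to 100 µm were cultured in collagen in a microfluidic chip. On day 6 of treatment they were digested, and tumour cells were sorted for 10x Chromium 3′ sequencing. One culture group received control IgG (clone 2A3) at 10 µg/mL. The other received an antibody (aPD-1, clone RMP1-14) against PD-1, a receptor on T cells, at 10 µg/mL. Each group has 1 library. The series gives its purpose as a profile of the tumour cells left after PD-1 blockade.

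Proteins that enter the ER are folded there by chaperones and by enzymes that form disulphide bonds. When unfolded protein builds up, the sensors IRE1, PERK and ATF6 start the unfolded protein response: IRE1 splices the Xbp1 messenger, ATF6 is cut into a transcription factor, and PERK phosphorylates the initiation factor eIF2, which favours translation of Atf4. XBP1 and ATF6 are known to raise chaperone and degradation genes, whereas ATF4 raises genes of amino acid supply and Ddit3, which encodes CHOP, and it can be reached through other eIF2 kinases as well. Tumour cells that secrete matrix or live with poor nutrient supply are known to use both arms.

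Cells with at least 5000 unique molecular identifiers (UMIs) and at most 10% mitochondrial UMIs were kept: 2198 IgG cells with 49422640 UMIs (median 20663 per cell) and 3356 aPD-1 cells with 61462778 (median 16577). Mitochondrial UMIs made up a median of 2.92% (IgG) and 3.60% (aPD-1) per cell, and ribosomal protein genes held 34.3% and 38.0% of UMIs. The libraries shared 8 barcodes. At least 3 macrophage markers had UMIs in 0.50% (IgG) and 0.0894% (aPD-1) of the cells, and at least 3 endothelial markers in 1.09% and 0.119%. The 8 epithelial markers summed to 0.465 CPM (a gene's UMIs scaled to 1000000 UMIs of the library's kept cells) in IgG and 0.130 in aPD-1, with 3 of them at 0 in both, beside 1006 and 700 CPM for the 9 fibroblast markers, so the name tumour cell rests on the sort and not on keratins. As each treatment has 1 library there is no test: a difference here is between 2 libraries, in which the antibody cannot be told apart from sorting, loading and cell calling. Intervals in brackets are 95% intervals of the ratio aPD-1 over IgG and cover counting error only.

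The ER chaperones were lower in the aPD-1 library, and the ATF4 branch as a sum was not. The 14 chaperone genes summed to 3098 CPM in IgG and 2219 in aPD-1, a ratio of 0.716 (0.711 to 0.722). The 10 genes of the ATF4 branch summed to 1040 and 1080 CPM, a ratio of 1.04 (1.03 to 1.05), and without Atf4 itself the log2 ratio of that sum was −0.01. Of the 32 genes, 29 had a mean of at least 10 CPM, and 25 of those had a ratio under 1, as did 4678 of all 6967 genes at that level. The median log2 ratio (with 1 CPM added to both values) was −0.23 over these 29 genes and −0.10 over all genes. By branch it was −0.56 over the 13 chaperone genes at that level and −0.09 over the 10 ATF4 branch genes, the latter near that of all genes.

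By at least 1.5-fold, 5 of the 29 were lower in aPD-1, against 3.01% of all genes, and 0 were higher, against 0.531%. With a looser limit, 13 were lower by at least 20% (17.2% of all genes) and 1 was higher by at least 25% (3.9%). All 5 of the first count were chaperone genes, as were 10 of the 13. The others of the 13 were Xbp1, Herpud1 and Atf3, and the single higher gene was Ddit3. With the all-gene median set to 0, and likewise in CPM without ribosomal protein and mitochondrial genes, the count lower by 1.5-fold was 1, Pdia4, and the count lower by 20% was 9. At a limit of 5% mitochondrial UMIs the 1.5-fold count was 2. The shares of all genes above belong to the kept cells in plain CPM. None is given for the counts under other settings, which cannot be set against them. The 11 macrophage markers summed to 32.8 CPM in IgG and 5.89 in aPD-1 and the 8 endothelial markers to 57.2 and 20.5. Without the cells that carried at least 3 of either, the chaperone log2 ratio was −0.48, as with them, and the 1.5-fold count was 4. The count lower by 20% was then 12, and Atf3, at a log2 ratio of −0.22, was no longer part of it.

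**Figure D1:**
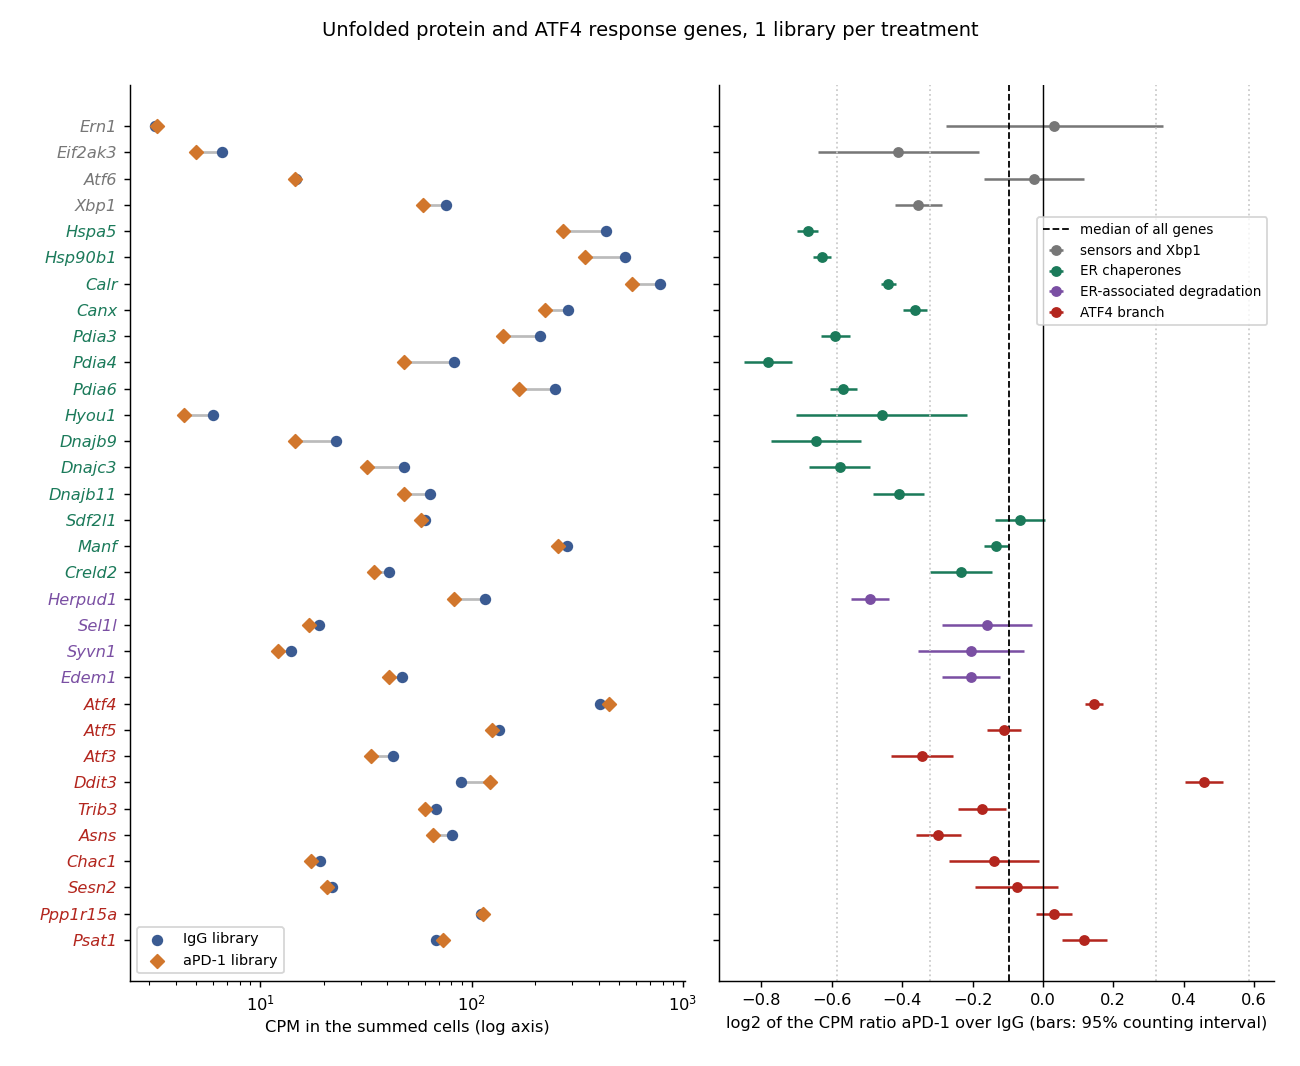
Left, CPM of the 32 genes in the IgG (circles) and aPD-1 (diamonds) library on a log axis. Right, log2 of the CPM ratio with no CPM added, with 95% counting intervals; the dashed line is the all-gene median (−0.10) and dotted lines mark the limits of 20% lower, 25% higher and 1.5-fold. Chaperone genes lie left of the dashed line apart from Sdf2l1, and Ddit3 and Atf4 lie to the right of 0.

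The sensors gave few UMIs. Ern1, which encodes IRE1, was at 3.20 CPM in IgG and 3.27 in aPD-1, and Eif2ak3, which encodes PERK, at 6.60 and 4.96 CPM. Both were under the 10 CPM limit, and only Eif2ak3 had an interval of the ratio that lay below 1 (0.641 to 0.882). Atf6 was at 14.8 and 14.6 CPM, with an interval that spanned 1 (0.891 to 1.09). Xbp1, the factor made active by IRE1, was at 75.6 CPM in IgG and 59.2 in aPD-1, a ratio of 0.782 (0.747 to 0.819). These UMIs are counted near the 3′ end and do not separate the spliced from the unspliced messenger.

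Among the chaperones, Hspa5 encodes BiP, the ATP-driven chaperone that also holds the sensors inactive. It was at 432 CPM in IgG and 272 in aPD-1, a ratio of 0.629 (0.617 to 0.642). Hsp90b1, the HSP90 of the ER, was at 534 and 346 CPM (0.635 to 0.659). Calr and Canx, the lectin chaperones that hold glycoproteins in the folding cycle, were at 779 and 575 CPM and at 286 and 222 CPM, with ratios of 0.738 and 0.777.

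Of the disulphide isomerases, Pdia3 and Pdia4 passed 1.5-fold. Pdia4 had the lowest ratio of the 32 genes, 0.582 (0.555 to 0.610), from 82.6 CPM in IgG to 48.1 in aPD-1. Pdia3, which works with calreticulin and calnexin on glycoproteins, was at 211 and 141 CPM, a ratio of 0.664 (0.646 to 0.684) just past 1.5-fold. Pdia6 was at 249 and 168 CPM, a ratio of 0.675 (0.657 to 0.693) just inside it.

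BiP's partners were split. The J proteins Dnajb9, Dnajc3 and Dnajb11, which hand clients to BiP, were at 22.9 and 14.6, 47.9 and 32.1, and 63.6 and 47.8 CPM, with ratios of 0.640, 0.670 and 0.752. Hyou1, a nucleotide exchange factor of BiP, was at 6.01 and 4.38 CPM and below the level limit. Sdf2l1, a partner of Dnajb11, was at 60.4 and 57.7 CPM, and its interval spanned 1 (0.910 to 1.004). Over the 9 alternative settings its log2 ratio ran from −0.11 to 0.04 and crossed 0. Manf, a secreted factor that binds BiP, was at 282 and 257 CPM, a ratio of 0.912 (0.891 to 0.933), and Creld2, another ER stress-induced protein, at 40.5 and 34.5 CPM, a ratio of 0.851 (0.80 to 0.905). Sdf2l1, Manf and Creld2 were the 3 chaperone members above the level limit that were not lower by 20%. Manf overlaps Dcaf1 and Rbm15b in the GENCODE M21 annotation, and Pdia3 and Pdia6 overlap Catsper2 and Atp6v1c2 on the other strand. The sources used here do not state whether strand was used in counting.

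Promoters of 7 of the 12 chaperone genes matched hold the exact form of a known element. It is shown here because none of the ATF4 branch promoters held that form. The ER stress response element (ERSE) is CCAAT, 9 bases, CCACG, the site that ATF6 and XBP1 are known to use with NF-Y. It was searched on both strands in RefSeq promoters of build GRCm38.p6, each 250 bases before to 50 after a gene start, which hold 29 of the 32 genes and not Atf6, Hyou1 or Manf. Of all 32851 promoters, 39 (0.119%) held it, among them those of 7 of the 12 chaperone genes matched, 1 of the 4 degradation genes (Syvn1) and 0 of the 10 ATF4 branch genes. Hsp90b1 held 2 copies. With 1 mismatch allowed, it was in 1.504% of all promoters, 9 of 12 chaperone genes, 3 of 4 degradation genes and 1 of 10 ATF4 branch genes (Ddit3). The sites lay at chr2:34772020-34772048 (Hspa5, + strand), chr10:86705618-86705676 and chr10:86705513-86705571 (Hsp90b1, − strand), chr8:84847055-84847113 (Calr, −), chr11:50325780-50325838 (Canx, −), chr12:17266471-17266529 (Pdia6, +), chr14:118937807-118937865 (Dnajc3, +) and chr15:88819500-88819558 (Creld2, +). They read 5′ to 3′ along the gene's strand as follows, with the fixed bases of the element in capitals, and an element on the other strand reads CGTGG, 9 bases, ATTGG.
Hspa5: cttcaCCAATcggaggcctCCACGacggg
Hsp90b1, distal: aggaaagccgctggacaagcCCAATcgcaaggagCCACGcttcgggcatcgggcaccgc
Hsp90b1, proximal: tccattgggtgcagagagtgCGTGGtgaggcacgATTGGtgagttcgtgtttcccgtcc
Calr: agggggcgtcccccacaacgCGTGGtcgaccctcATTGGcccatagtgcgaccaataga
Canx: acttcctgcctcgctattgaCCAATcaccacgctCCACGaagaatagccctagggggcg
Pdia6: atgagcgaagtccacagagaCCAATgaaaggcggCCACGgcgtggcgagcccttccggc
Dnajc3: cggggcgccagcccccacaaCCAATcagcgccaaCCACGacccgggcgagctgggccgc
Creld2: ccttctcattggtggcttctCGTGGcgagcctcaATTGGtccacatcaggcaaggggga

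A match is a description of these letters and not a site in use. Of the 7 chaperone genes with the exact element, 6 were lower by at least 20% and Creld2 was not. The degradation gene Syvn1, whose site at chr19:6046512-6046570 (+) is not printed, held it and was not lower by 20% either. Pdia3, Pdia4, Dnajb9 and Dnajb11 lacked the exact element and were lower by 20% too. Of these, Pdia3 and Pdia4 held it with 1 mismatch, and Dnajb11 held a shorter form described below. Outside the 32 genes, 29 genes held the exact element, of which 2 had at least 10 CPM. These were Hnrnpa3 at 260 and 207 CPM and Xlr3c at 50.5 and 42.0 CPM, chosen after their values were seen. With 1 mismatch allowed, 115 outside genes had at least 10 CPM, of which 22 were lower by 20% and 5 higher by 25%, with a median log2 ratio of −0.12, near the −0.10 of all genes.

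ER-associated degradation, which pulls misfolded proteins out for the proteasome, was led by Herpud1, an organiser of the ligase complex. Herpud1 was at 116 CPM in IgG and 82.4 in aPD-1, a ratio of 0.711 (0.685 to 0.739). The ligase Syvn1 was at 14.1 and 12.2 CPM, its adaptor Sel1l at 19.1 and 17.1, and Edem1, which takes misfolded glycoproteins out of the folding cycle, at 46.8 and 40.6. Those 3 had ratios from 0.868 to 0.895, and none was lower by 20%.

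The Herpud1 promoter is printed because it holds an element of each arm. The shorter ERSE-II (ATTGG, 1 base, CCACG) was in 0.0365% of all promoters, and among the genes described here in those of Herpud1 and Dnajb11. The amino acid response element that ATF4 is known to bind with C/EBP partners was searched on both strands as TTGCATCA (0.895% of promoters; Herpud1, Atf3 and Chac1) and TTTCATCA (1.02%; Asns). The 250 bases before the RefSeq start of Herpud1 lie at chr8:94386179-94386428 on the + strand of GRCm38.p6. The first stretch of capitals is TTGCATCA and the other marks the fixed bases of ERSE-II.
Herpud1: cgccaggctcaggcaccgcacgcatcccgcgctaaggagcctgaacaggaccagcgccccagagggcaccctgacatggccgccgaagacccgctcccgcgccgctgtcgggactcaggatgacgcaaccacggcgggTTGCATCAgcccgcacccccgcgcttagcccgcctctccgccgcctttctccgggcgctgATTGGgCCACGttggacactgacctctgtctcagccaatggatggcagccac

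Within the ATF4 branch the genes did not move as a block. Atf4, the factor at its head, was at 405 CPM in IgG and 448 in aPD-1, a ratio of 1.11 (1.09 to 1.13). Ddit3, which encodes the stress factor CHOP, was at 88.8 and 122 CPM, a ratio of 1.37 (1.32 to 1.43), and 98.9% of all genes at 10 CPM or more had a lower log2 ratio. Its record overlaps Mars, a tRNA synthetase gene on the other strand, which was lower in aPD-1 at 28.3 and 21.8 CPM. Atf5, a related factor translated under the same control, was at 134 and 125 CPM. Atf3, which also belongs to the immediate early genes, was at 42.5 and 33.5 CPM, a ratio of 0.788 (0.741 to 0.837). Without the cells that carried macrophage or endothelial markers, the log2 ratio of Atf3 was −0.22, against −0.34 with them. Both factor genes with a ratio above 1 kept a log2 ratio above 0 over the 9 alternative settings, from 0.13 to 0.25 for Atf4 and from 0.40 to 0.56 for Ddit3.

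The targets were on either side of 1. Trib3, a pseudokinase that restrains the response, was at 67.9 and 60.2 CPM, and Asns, asparagine synthetase, at 80.8 and 65.7 CPM, a ratio of 0.814 (0.779 to 0.850). Chac1, which breaks down glutathione, was at 19.2 and 17.4 CPM, and the nutrient stress gene Sesn2 at 21.8 and 20.7 CPM with an interval that spanned 1. Ppp1r15a, the phosphatase subunit that reverses eIF2 phosphorylation, was at 111 and 114 CPM with an interval that spanned 1, and its log2 ratio changed sign over the settings, from −0.01 to 0.13. Psat1, of serine synthesis, was at 67.7 and 73.5 CPM, a ratio of 1.09 (1.04 to 1.14). Of the 6 targets, 4 had a ratio under 1 and 3 lay below the all-gene median. Both counts are near the shares of all genes, of which 4678 of 6967 had a ratio under 1.

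The 3 promoters of the branch with an ATF4-type element are printed to set beside Herpud1. They lie at chr1:191183416-191183463 (Atf3, −), chr2:119351029-119351076 (Chac1, +) and chr6:7693220-7693237 (Asns, −, where TTTCATCA is on the other strand and reads TGATGAAA), on GRCm38.p6 from RefSeq with the element in capitals.
Atf3: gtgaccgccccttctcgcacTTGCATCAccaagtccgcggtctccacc
Chac1: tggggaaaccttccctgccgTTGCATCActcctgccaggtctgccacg
Asns: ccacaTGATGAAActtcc

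Other genes of the same pathways were counted from lists, beside 17.2% of all genes lower by 20%, 3.9% higher by 25% and an all-gene median of −0.10. Of 18 other ER folding and translocation genes of at least 10 CPM, 4 were lower by 20% and 0 higher by 25%, with a median log2 ratio of −0.10, near those of all genes. The 4 were Sec61g of the translocon (940 and 679 CPM), the isomerase Pdia5 (19.0 and 14.1), the proline isomerase Ppib (461 and 359) and the signal peptidase subunit Spcs2 (145 and 115). Of 16 other degradation and regulator genes, 11 were lower by 20% and 0 higher by 25%, with a median of −0.37. Examples were Vimp, a selenoprotein of the retrotranslocation complex (177 and 119 CPM), the ER lectin Os9 (27.5 and 18.9), the segregase Vcp (198 and 142) and the ER calcium and cell death regulator Tmbim6 (292 and 199).

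Genes of the other ATF4 lists lay on both sides of 1. Amino acid genes had a median of −0.00, with 1 of 13 higher by 25% (the cystine transporter Slc7a11, 51.8 and 67.0 CPM) and 1 lower by 20% (Aldh18a1 of proline synthesis, 18.05 and 13.9). The arginine transporter gene Slc7a1 was at 70.3 and 82.5 CPM and Phgdh, which starts serine synthesis, at 233 and 199. Of the 13 tRNA synthetase and export genes, 3 were lower by 20% (Nars, Sars and Mars) and 0 higher by 25%, with a median of −0.15 and 8 of 13 below the all-gene median. Of 14 other stress genes, 2 were lower by 20% and 1 higher by 25%, with a median of −0.07. Ddit4, an mTORC1 inhibitor also known from hypoxia, was at 290 CPM in IgG and 170 in aPD-1. The translation repressor Eif4ebp1 was at 544 and 753, the autophagy receptor Sqstm1 at 325 and 247, and the eIF2 subunit Eif2s1 at 153 and 123. Eif4ebp1 and Slc7a11 thus had ratios above 1 like Ddit3, whereas Ddit4 had one as low as Pdia4, on the log2 scale −0.77 for each.

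Across cells, the chaperone genes varied together and the ATF4 branch genes varied together, while pairs across the branches centred near 0. Each cell was thinned to 5000 UMIs and Pearson's r was taken over log2(UMIs + 1), in each library on its own. Cells of 1 library share it, sparse counts pull r towards 0, and r is given as a description. The 91 chaperone pairs had a median r of 0.10 in IgG and 0.07 in aPD-1, and 98.9% and 93.4% of them were above 0. The 45 ATF4 branch pairs had a median of 0.07 and 0.06, with 86.7% and 93.3% above 0. The 140 pairs across branches had a median of −0.01 and −0.00, with 40% and 48.6% above 0. Over all 3000025 pairs of genes of at least 50 CPM the median was 0.00 in IgG and 0.01 in aPD-1. The 99th percentile was 0.13 and 0.12, and 55.64% and 58.05% of these pairs were above 0. The shares above 0 within each branch were higher than this, and those across branches were lower. The branch sets also hold genes under 50 CPM.

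Ordered by the mean r of both libraries, the closest 4 chaperone pairs were Hsp90b1 with Calr (r 0.35 in IgG and 0.28 in aPD-1), Calr with Pdia6 (0.37 and 0.26), Hspa5 with Pdia6 (0.38 and 0.23) and Hspa5 with Hsp90b1 (0.36 and 0.24). In the ATF4 branch they were Ddit3 with Trib3 (0.20 and 0.21), Atf4 with Trib3 (0.20 and 0.18), Trib3 with Chac1 (0.22 and 0.16) and Atf4 with Ddit3 (0.19 and 0.17). By the same order the lowest 2 across branches were Calr with Atf5 (−0.12 and −0.09) and Pdia6 with Ddit3 (−0.12 and −0.07). The chaperone pairs named had the higher r in IgG, the library with the higher chaperone levels. For the median of all chaperone pairs this order did not hold at a limit of 5% mitochondrial UMIs, with 0.074 in IgG and 0.076 in aPD-1.

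**Figure D2:**
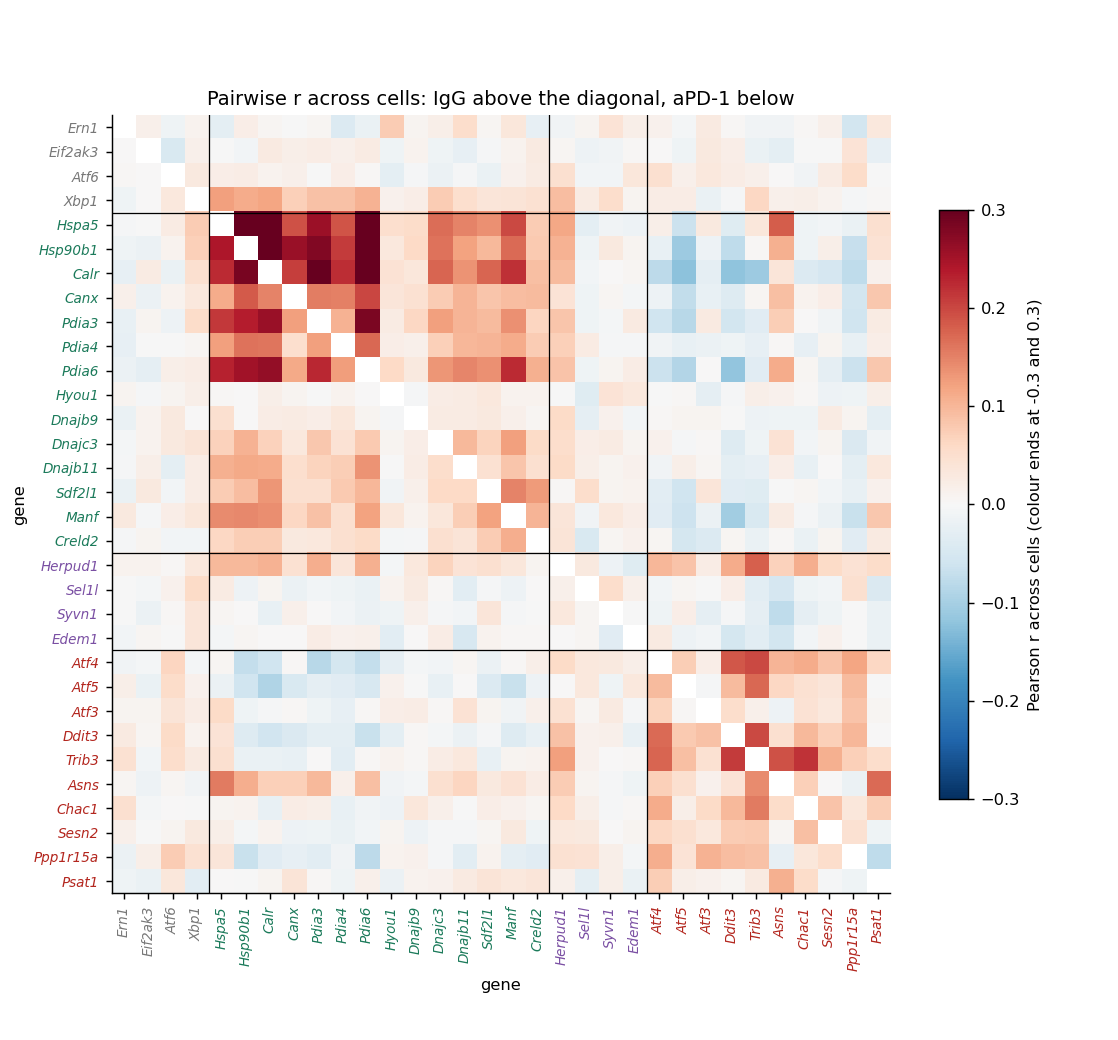
Pearson r across cells for each pair of the 32 genes, 2198 IgG cells above the diagonal and 3356 aPD-1 cells below it, coloured from −0.3 to 0.3; lines separate sensors with Xbp1, chaperones, degradation genes and the ATF4 branch. The block around Hspa5, Hsp90b1, Calr and Pdia6 is the darkest, a paler block holds Atf4, Ddit3 and Trib3, and Herpud1 has pale positive cells in both directions.

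The sums of both branches had an r of −0.11 in IgG and −0.06 in aPD-1 (−0.06 and −0.04 without cells that carried macrophage or endothelial markers, −0.08 and −0.03 without the highest group of cells by a Gsn and Lbp list). Sums over alternate genes within a branch, a split chosen after the data had been seen, gave r of 0.51 and 0.40 for the chaperones and 0.25 and 0.23 for the ATF4 branch, which shows how far each sum tracks itself at this depth.

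Each gene was also set against the sum of the other chaperone genes and the sum of the other ATF4 branch genes. Calr had the highest r with the chaperones in IgG, 0.51, and one of −0.15 with the ATF4 sum (0.39 and −0.07 in aPD-1). Hspa5 had 0.47 and 0.02 in IgG and 0.32 and 0.06 in aPD-1, whereas Hsp90b1, Canx, Pdia3, Pdia4, Pdia6 and Manf, like Calr, had a negative r on the ATF4 side in both libraries. Trib3 had the highest r with the ATF4 sum, 0.29 in IgG and 0.25 in aPD-1, ahead of Atf4 (0.24 and 0.24) and Ddit3 (0.22 and 0.21).

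Both Herpud1 and Asns went with the 2 sums at once. Herpud1 had r of 0.14 with the chaperones and 0.18 with the ATF4 sum in IgG, and 0.15 and 0.11 in aPD-1. Whether the elements of its promoter play a part was not tested. Asns had 0.13 and 0.16 in IgG and 0.15 and 0.09 in aPD-1, and its r with Hspa5 was 0.18 and 0.16. Xbp1 went with the chaperones (0.16 and 0.09) and not with the ATF4 sum (0.01 and 0.01). Dnajb9, known as a target of XBP1, had only 0.07 and 0.03 with the chaperones, at 286 and 249 thinned UMIs in all.

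**Figure D3:**
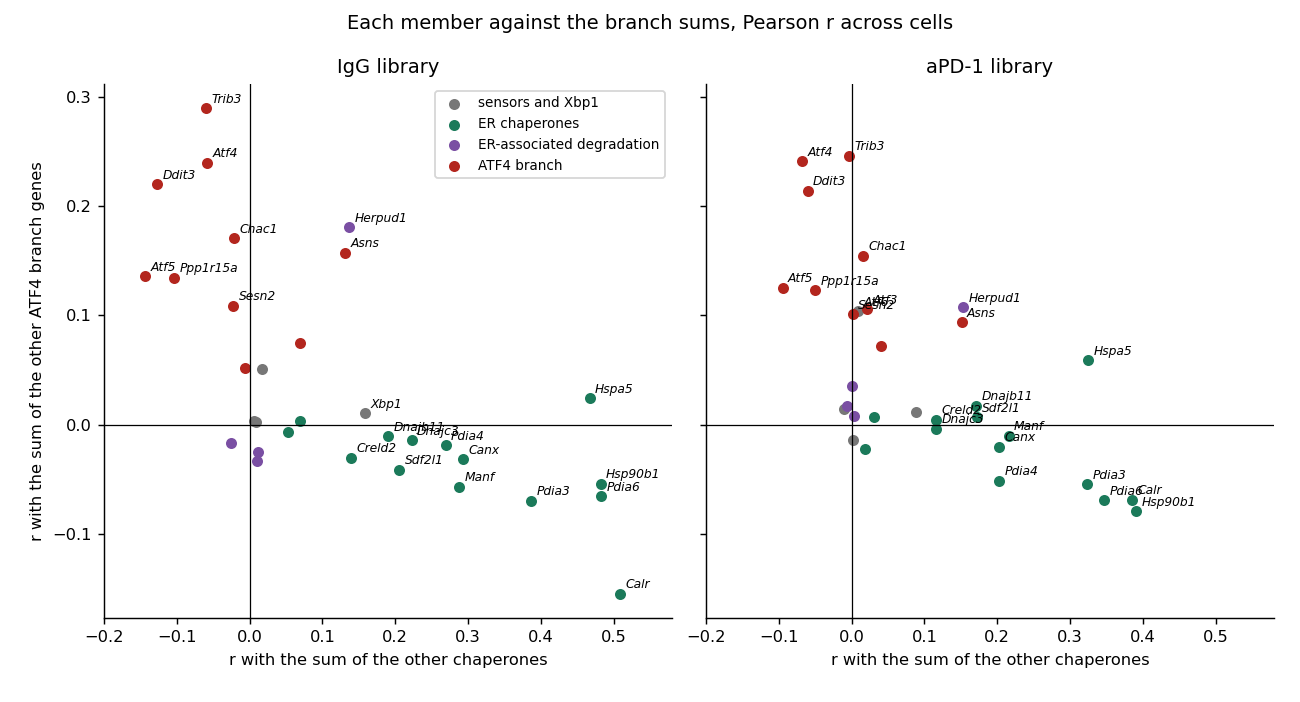
Each of the 32 genes by its r across cells with the sum of the other chaperone genes (horizontal) and with the sum of the other ATF4 branch genes (vertical), IgG left and aPD-1 right; genes with an r of at least 0.1 in size are named. Chaperones lie along the horizontal axis, ATF4 branch genes along the vertical one, and Herpud1 and Asns are positive on both.

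Some ATF4 branch genes tracked other programmes. Ppp1r15a had r of 0.27 in IgG and 0.22 in aPD-1 with the sum of immediate early genes (Fos, Jun, Egr1 and others), higher than its 0.13 and 0.12 with the ATF4 sum. Atf3 had 0.17 and 0.13 with immediate early genes and 0.05 and 0.11 with the ATF4 sum. Psat1 had 0.22 and 0.19 with S phase genes, 0.07 with the ATF4 sum in each library, and 0.07 and 0.04 with the chaperone sum. Asns had 0.21 and 0.20 with the sum of cytosolic heat shock chaperones, above its r with either branch sum. Immediate early genes can be set off by dissociation. Their sum was 8479 CPM in IgG and 6715 in aPD-1, and its part in the Atf3 difference was not tested.

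The sum of cytosolic heat shock chaperones had an r of 0.42 in IgG and 0.33 in aPD-1 with the ER chaperone sum. Of 12 such genes of at least 10 CPM, 8 were lower by 20% in aPD-1, against 17.2% of all genes. As a sum the heat shock list had a ratio of 0.870 (0.867 to 0.873). The r of the ER chaperone sum was 0.26 and 0.22 with S phase genes, 0.22 and 0.17 with secreted and matrix genes, and 0.16 and 0.24 with the log2 of total UMIs. The ATF4 sum had −0.14 and −0.16 with secreted and matrix genes and −0.03 and 0.01 with total UMIs. Among 2431 other genes of at least 50 CPM, the 8 closest to the chaperone sum by mean r over both libraries were Ppia, Atp5b, Fdps, Hsp90aa1, Hspa8, Rhox5, H2-D1 and Hsp90ab1, from 0.39 down to 0.33. The 8 closest to the ATF4 sum were Zfos1, Snhg12, 5430416N02Rik, Eif4ebp1, Eif2s2, Cebpb, Mthfd2 and Eif1, from 0.32 down to 0.20.

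Per cell, the chaperone difference was seen at each percentile taken. Of 5000 UMIs, the median IgG cell had 13 from the 14 chaperone genes (10th percentile 5, 25th 8, 75th 19 and 90th 27) and the median aPD-1 cell 9 (4, 6, 13 and 18). Of aPD-1 cells, 73.2% lay below the IgG median, against 49.4% of IgG cells. For the ATF4 branch the median was 5 in both, with the same 10th to 90th percentiles of 2 to 10, and means of 5.402 and 5.410.

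Cells with more ATF4 branch UMIs had fewer chaperone UMIs on average, with little change of the median in aPD-1. Over 4 equal groups of the cells of a library, from the lowest to the highest ATF4 sum, the mean chaperone sum was 16.0, 15.5, 14.7 and 13.9 UMIs in IgG and 10.95, 10.7, 10.1 and 9.60 in aPD-1. The medians were 14, 13, 12 and 11 in IgG and 9, 9, 9 and 8 in aPD-1. Calr followed the sum, with 4.34 in the lowest and 3.08 in the highest group of IgG, and 3.03 and 2.37 in aPD-1. Hspa5 did not follow, at 2.07 and 2.24 in IgG and 1.17 and 1.36 in aPD-1. Herpud1 went the other way, from 0.429 to 0.858 in IgG and from 0.324 to 0.545 in aPD-1.

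**Figure D4:**
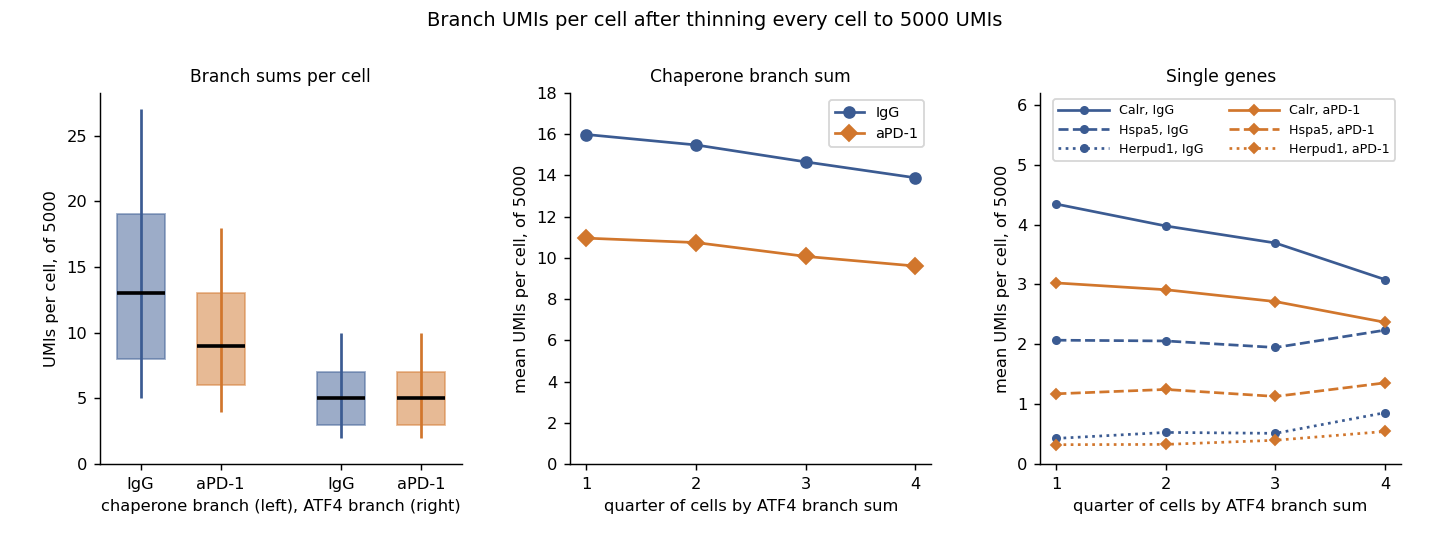
Left, UMIs per cell of each branch out of 5000 (black line the median, box the 25th to 75th percentile, whiskers the 10th to 90th). Middle and right, mean UMIs per cell of the chaperone sum and of Calr, Hspa5 and Herpud1 in 4 equal groups of cells ordered by the ATF4 sum, from 16.0 down to 13.9 for the IgG chaperone sum.

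The difference between libraries was also taken within strata of cells. These were 4 equal groups of the pooled cells by each of 4 lists (genes of a Gsn and Lbp high state, hypoxia, immediate early and interferon genes), 3 depth bins and 3 cell cycle classes, 22 in all, which divide the same cells in 6 ways. The chaperone ratio was under 1 in all 22, from 0.638 in cells of 5000 to 10000 UMIs to 0.815 in the highest Gsn and Lbp group. By depth it was 0.638, 0.673 and 0.790 from the shallowest to the deepest bin. IgG cells were deeper (median 20663 against 16577 UMIs). Over the same bins the chaperone sum was 2812, 2852 and 3195 CPM in IgG and 1793, 1920 and 2524 in aPD-1. The part of depth in the difference was not tested. The ATF4 ratio ran from 0.949 to 1.11. Hspa5, Hsp90b1, Calr, Canx, Pdia3, Pdia4, Pdia6, Dnajb9, Dnajc3, Dnajb11 and Herpud1 were below the all-gene median of the stratum in 22 of 22. Atf4 and Ddit3 were higher in aPD-1 in 22 of 22, with a log2 ratio from 0.03 to 0.24 for Atf4 and from 0.09 to 0.79 for Ddit3. That of Atf3 ran from −0.94 to 0.35. The share of all genes with 22 of 22 is not given here. As the strata divide the same cells, these counts do not measure how consistent a difference is.

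**Figure D5:**
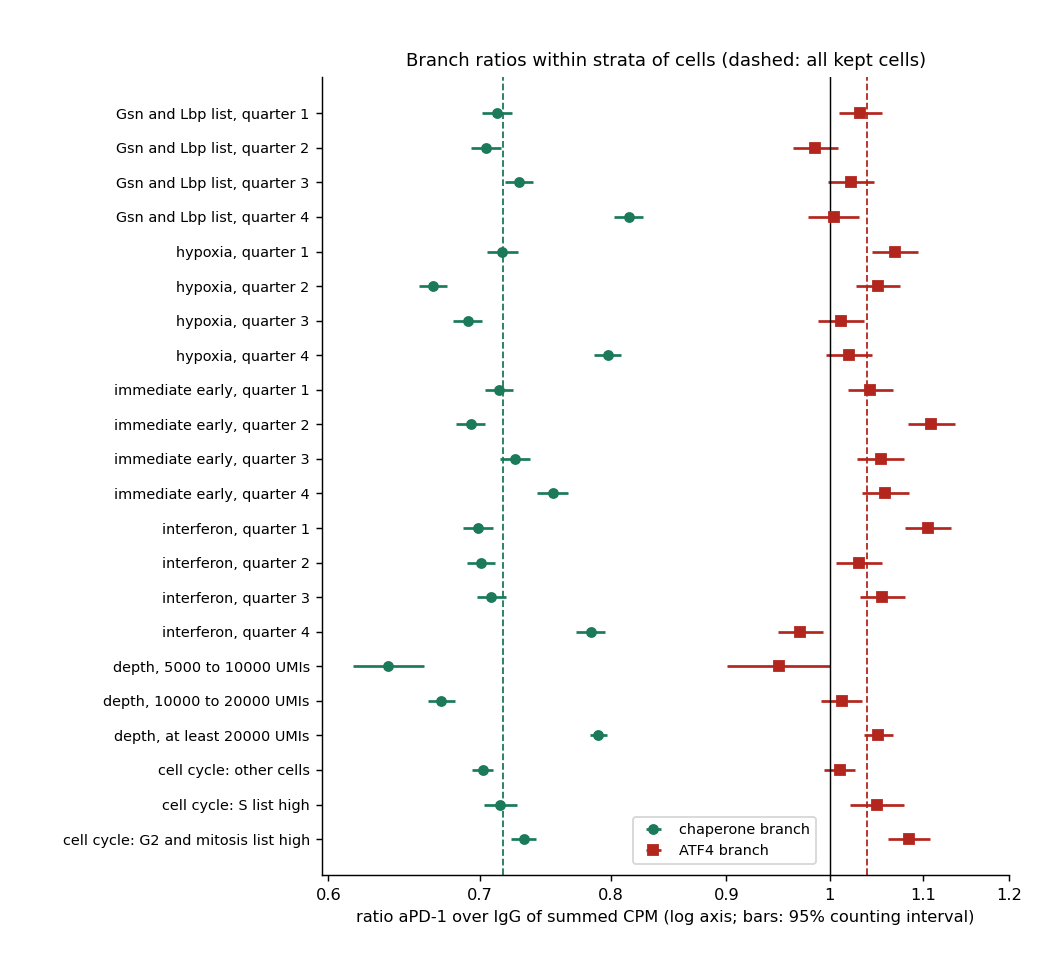
Ratio aPD-1 over IgG of the summed chaperone genes (circles) and ATF4 branch genes (squares) within 22 strata of cells, on a log axis with 95% counting intervals; dashed lines are the ratios over all kept cells (0.716 and 1.04). Every circle lies under 1, from 0.638 to 0.815, and the squares lie from 0.949 to 1.11.

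Both branches also differed between groups of cells within a library, which is given as a description. The chaperone genes summed to 3509 CPM in IgG cells high in G2 and mitosis genes and 2790 in the other cells outside S phase (2569 and 1959 in aPD-1). The ATF4 branch summed to 1004 and 1061 CPM in the same classes of IgG cells and to 1088 and 1072 in aPD-1, with no common direction. From the lowest to the highest Gsn and Lbp group the chaperone sum was 2822 and 3436 CPM in IgG and 2010 and 2799 in aPD-1. Over the same groups the ATF4 branch ran the opposite way, 1148 and 932 CPM in IgG and 1184 and 936 in aPD-1. Of the kept cells, 691 of 2198 IgG and 698 of 3356 aPD-1 cells were in that highest group.

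RNA outside cells was read from aPD-1 barcodes under 100 UMIs, 515790 barcodes with 4234674 UMIs. The chaperone genes summed to 1770 CPM there and the ATF4 branch to 1113, beside 2219 and 1080 in aPD-1 cells. The IgG matrix holds only called cells, so the same value was not available for it, and the part of free RNA in the differences was not tested.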

How the data were processed

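The 32 genes, the gene lists and the strata were chosen with earlier results of these data known. Per the file headers, the deposited matrices hold UMI counts that were not normalised, from Cell Ranger 3.0.2; the submitters' processing notes name Cell Ranger, Seurat 2.1.0 and build mm10. The sources used here name neither the gene annotation nor the sort markers. The IgG matrix held 4351 called barcodes and the aPD-1 matrix 737280, so a common floor of 5000 UMIs and at most 10% mitochondrial UMIs was applied. Doublets were not removed. UMIs were summed over the kept cells of each library and divided by all their UMIs (CPM). Nothing in the labels shows more than 1 library per treatment, so no p-value was computed; ratios carry exact conditional binomial 95% intervals. A gene was counted when its mean was at least 10 CPM and it differed by 1.5-fold, or by the looser limits of 20% lower and 25% higher. Log2 ratios carry 1 CPM on each side. Named are all 32 genes, up to 4 genes of each other pathway list with the largest log2 ratio in size, and the 8 genes outside the 32 closest to each branch sum. Coexpression used cells thinned to 5000 UMIs without replacement (seed 1). Cells were placed in strata by genes outside the 32. Intervals, thinning and r were tested on simulated data with known answers. Gene positions and overlaps came from GENCODE M21 on GRCm38 by gene identifier, and promoters from RefSeq on GRCm38.p6 by symbol. Where an element with 20 flanking bases overlapped an annotated exon, as for Hspa5 and Asns, 5 flanking bases were kept. The printed Hspa5, Asns and Atf3 stretches lie within the GENCODE record of their own gene, so they precede the RefSeq start only. Alternatives were other UMI floors and mitochondrial limits, equal weight per cell, other scalings, cells or genes left out, no filter on level and no thinning. Python 3.11.15, numpy 2.4.6, scipy 1.17.1, pandas 2.3.3 and matplotlib 3.10.9 were used.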

Additional observations from a re-analysis of the deposited data

How the results depend on the processing

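The chaperone log2 ratio of −0.48 stayed below 0 under every alternative run: −0.41 at a limit of 5% mitochondrial UMIs, −0.54 with cells weighted equally, −0.38 in CPM without ribosomal protein and mitochondrial genes, −0.38 with the all-gene median set to 0, −0.50 without the highest Gsn and Lbp group and −0.45 without Hspa5. The ATF4 branch log2 ratio of 0.05 was 0.035 under equal weight, 0.16 and 0.15 under the same 2 scalings, 0.035 without that group, 0.073 without Atf3 and Ppp1r15a, and −0.0071 without Atf4. The count of genes lower by 1.5-fold, 5 as reported, was 2 at 5% mitochondrial UMIs and 1 under each of the scalings, where fixed folds meet ratios raised by 0.10 on the log2 scale. The share of all genes under these settings is not given. Without thinning, the median r was 0.23 in IgG and 0.18 in aPD-1 for chaperone pairs and 0.14 and 0.13 for ATF4 branch pairs. With a floor of 10000 UMIs it was 0.052 for ATF4 branch pairs in aPD-1. At a limit of 5% mitochondrial UMIs it was 0.074 in IgG and 0.076 in aPD-1 for chaperone pairs, so IgG no longer had the higher value. The r of the branch sums in aPD-1, −0.06, was −0.03 without the highest Gsn and Lbp group. Sdf2l1, Ern1, Atf6, Sesn2 and Ppp1r15a changed sign between settings. No paired analysis was possible because each treatment has 1 library. The cause of these shifts was not tested. Depth limits Ern1, Eif2ak3 and Hyou1, whose means were under 10 CPM.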
